A study of Mus musculus with 16 samples.

Results

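The genes described here are 10 chaperones and stress-response factors of the endoplasmic reticulum (ER): Hspa5, Hsp90b1, Xbp1, Pdia4, Calr, Sdf2l1, Creld2, Manf, Hyou1 and Dnajb11. They were listed by symbol, as known chaperones and unfolded protein response factors, and each symbol matched 1 Ensembl gene among the 55401 genes of the count tables. All 10 were among the 15808 genes that passed the filter on low counts and were tested. They are protein-coding genes on 8 chromosomes, and between 311 and 22593 expected counts fell on each of them in every library.

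The ER is the compartment in which membrane and secreted proteins fold, and neuroendocrine tissue such as the hypothalamus sends peptide precursors through it. When client proteins outnumber chaperones, 3 sensors in the ER membrane start the unfolded protein response. IRE1 splices Xbp1 mRNA to produce an active transcription factor, ATF6 is cut to release another, and PERK slows translation and favours ATF4. XBP1 and ATF6 raise transcription of ER chaperones and folding enzymes through the ER stress response element (ERSE), whereas ATF4 acts mainly on amino acid metabolism and redox genes.

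The series holds RNA-seq of whole hypothalamus from 16 male C57BL/6 mice aged 3 months, each library from another mouse. It asked how global deletion of the acid-sensing ion channel ASIC1a affects hypothalamic transcripts at 2 times of day. The 4 groups of 4 mice were ASIC1a-/- at ZT13, ASIC1a-/- at ZT1, WT at ZT13 and WT at ZT1, where ZT1 is the hour after lights-on and ZT13 the hour after lights-off. The deletion is present in every cell throughout life, so an acute loss of the channel was not studied, and whole tissue was used, so fewer cells of a type and less RNA per cell cannot be told apart. Libraries held 34888522 to 42326259 expected counts. Asic1, the targeted gene, had 71.0 ± 0.807 counts scaled to library size (CPM) in ASIC1a-/- mice at ZT13 and 67.4 ± 2.41 CPM in those killed at ZT1, against 99.2 ± 2.20 CPM in WT mice of ZT13 and 104 ± 1.98 CPM in the WT mice of ZT1 (mean ± SD of 4 mice). The gene total was thus lower in all 8 ASIC1a-/- libraries without being absent, and it counts every transcript of the gene. The 10 hypothalamic marker genes on the list used to check the tissue were present in all 4 groups.

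The promoters of the chaperones are shown to mark where exact matches to known response elements lie. RefSeq windows on GRCm38.p6, from 250 bases before to 50 bases after the transcription start, were matched for 8 of the 10 genes (not Manf and Hyou1). They were searched on both strands for ERSE (CCAAT, any 9 bases, CCACG), ERSE-II (ATTGG, any 1 base, CCACG), the XBP1-type core TGACGTGG and the cyclic AMP response element TGACGTCA. In the following stretches the fixed parts of the motif are in capitals, each stretch is written in the direction in which the motif reads, and 5 flanking bases stand on either side.

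Hspa5, chr2:34772020-34772048, plus strand: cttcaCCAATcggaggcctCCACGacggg

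Hsp90b1, distal element, chr10:86705633-86705661, minus strand: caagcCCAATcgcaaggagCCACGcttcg

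Hsp90b1, proximal element, chr10:86705528-86705556, plus strand: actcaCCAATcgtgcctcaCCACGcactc

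Calr, chr8:84847070-84847098, plus strand: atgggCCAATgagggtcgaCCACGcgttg

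Creld2, chr15:88819515-88819543, minus strand: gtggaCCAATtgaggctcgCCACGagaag

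Dnajb11, ERSE-II, chr16:22857847-22857867, plus strand: cggcgATTGGcCCACGcctgg

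ERSE was present in 4 of the 8 windows, while 37 of 27025 genes with a window (0.137%) carried one. The members were listed as known chaperones and response factors, so this contrast is a description and was not tested. Counted from the transcription start, the Hspa5 element lay at -65 to -47 and the Calr element at -162 to -144. Hsp90b1 carried a pair, at -212 to -194 and at -107 to -89, and in Creld2 the element lay at -126 to -108. ERSE-II was found in Dnajb11 alone among the 8, just inside the transcribed part, and in 0.0444% of all genes with a window. The TGACGTGG core, present in 0.714% of genes, and TGACGTCA, present in 2.03%, were in none of the 8. Windows of Xbp1, Pdia4 and Sdf2l1 held no exact match to any of the 4 motifs. Only exact matches inside these windows were counted, so genes without a match may still carry such an element. The whole Hsp90b1 window is given because it holds a pair of elements, with the fixed parts of both in capitals on the gene's own strand; the proximal one appears there as its reverse complement.

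Hsp90b1, chr10:86705395-86705694, minus strand: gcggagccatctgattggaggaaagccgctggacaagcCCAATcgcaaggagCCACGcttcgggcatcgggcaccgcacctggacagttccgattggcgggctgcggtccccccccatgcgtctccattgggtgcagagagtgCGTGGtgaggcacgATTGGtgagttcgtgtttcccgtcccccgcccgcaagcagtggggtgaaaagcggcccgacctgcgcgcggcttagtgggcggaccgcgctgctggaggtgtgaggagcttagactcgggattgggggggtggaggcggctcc

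Expression levels were compared between genes as TPM, a share of all transcripts that divides by effective transcript length. Over the 16 libraries, Hsp90b1 averaged 451 ± 37.8 TPM, Calr 446 ± 44.7 TPM and Hspa5 379 ± 23.5 TPM (SD), and the pooled ranges of the 3 overlapped. Within libraries, Hspa5 was below both others in all 16, whereas Hsp90b1 exceeded Calr in 11 of 16. The 3 exceeded 97.9% to 98.3% of all tested genes. Below them came Xbp1 at 121 ± 5.49 TPM, Manf at 104 ± 4.75 TPM and Hyou1 at 94.9 ± 2.55 TPM, in this order in all 16 libraries, although the pooled range of Manf overlapped those of its neighbours. Dnajb11 (59.3 ± 2.80 TPM) and Pdia4 (57.4 ± 3.65 TPM) overlapped with each other and with no other member, and Dnajb11 was the higher in 12 of 16 libraries. Creld2 (29.4 ± 2.02 TPM) and Sdf2l1 (19.6 ± 2.10 TPM) stood apart at the low end, and Sdf2l1 still exceeded 51.9% of tested genes. Reads shared with other genes were nearly absent, since the posterior SD that RSEM gives for a count was at most 0.00367% of it.

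Transcripts of Calr and Hsp90b1 were lower at ZT13 than at ZT1 in both genotypes. In ASIC1a-/- mice, 7 of the 10 genes fell (Hspa5, Hsp90b1, Calr, Sdf2l1, Manf, Hyou1 and Dnajb11), none rose, and all 10 log2 fold changes were below 0, between -0.32 and -0.09 with a median of -0.145. Of all tested genes, 4.62% were called lower in that comparison, and their median was -0.0064. In WT mice 2 of the 10 fell, Hsp90b1 and Calr, none rose, 7 fold changes were below 0, and the median was -0.084, while 5.76% of all tested genes were called lower and their median was -0.0027. The 4 libraries at ZT13 were all below the 4 at ZT1 for 5 genes in ASIC1a-/- mice (Hsp90b1, Calr, Manf, Hyou1 and Dnajb11), against 6.88% of all tested genes, and for 4 genes in WT mice (Hsp90b1, Calr, Hyou1 and Dnajb11), against 8.68% of all tested genes. Here and below, a call is an adjusted p under 0.05 in the edgeR quasi-likelihood test, adjusted over all tested genes.

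**Figure D1:**
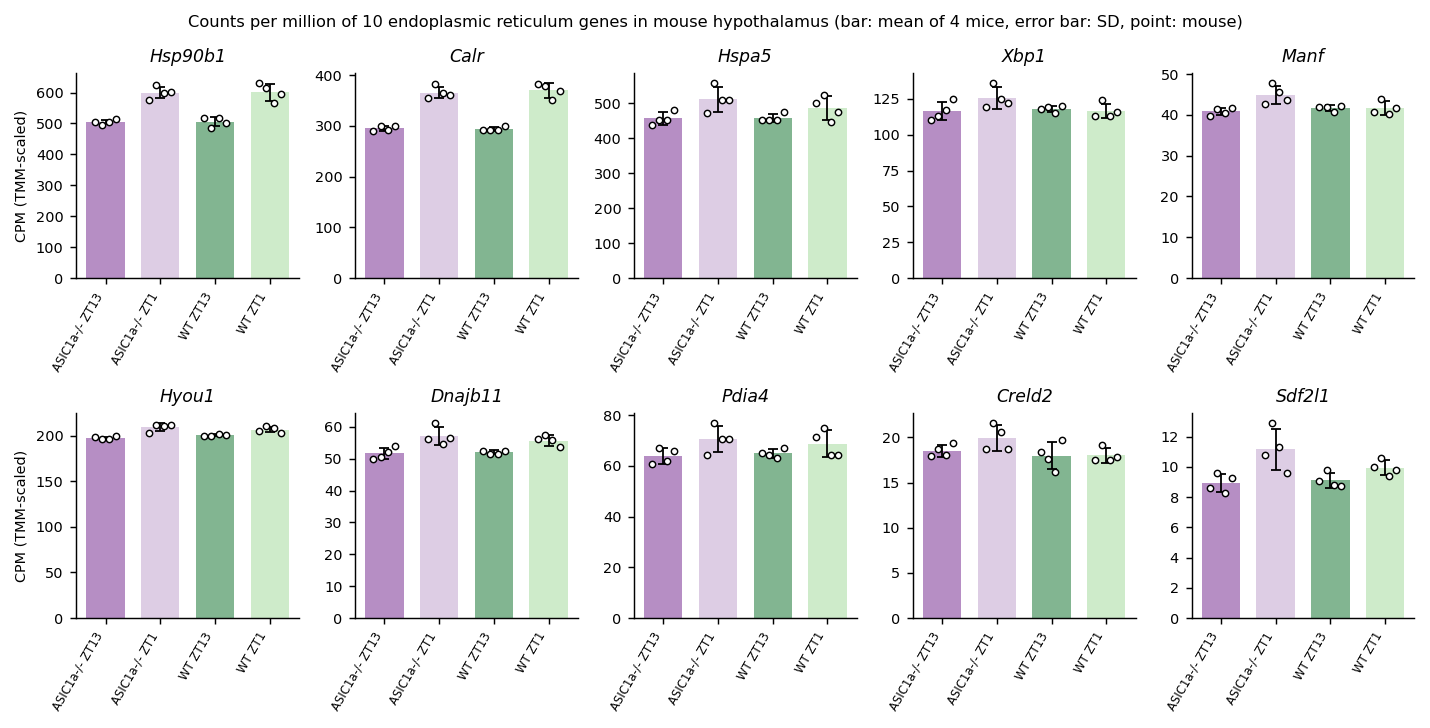
TMM-scaled CPM (y axis, from 0) of the 10 genes, in order of TPM, for ASIC1a-/- ZT13, ASIC1a-/- ZT1, WT ZT13 and WT ZT1 (x axis). Bars are means of 4 mice, error bars are SD and points are single mice. Calr and Hsp90b1 at ZT13 lay below every ZT1 library in both genotypes.

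Calr (ENSMUSG00000003814, GRCm38 chr8:84841850-84846934, minus strand) encodes calreticulin, a calcium-binding lectin chaperone that holds newly glycosylated proteins until they fold. It had 289.9, 299, 292 and 300.1 CPM in ASIC1a-/- mice at ZT13, against 355, 382, 364 and 361 CPM in ASIC1a-/- mice at ZT1. In WT mice it had 291, 292, 292 and 300.3 CPM at ZT13, against 383, 378, 350.0 and 368 CPM at ZT1. All ZT13 libraries lay close together and below all ZT1 libraries, whichever the genotype. The log2 fold change was -0.31 (SE 0.0286, adjusted p = 2.6e-06) in ASIC1a-/- mice and -0.33 (SE 0.0286, adjusted p = 1.1e-06) in WT mice, which is 19.2% and 20.6% lower. By p-value it ranked 19th among all tested genes in ASIC1a-/- mice and 14th in WT mice. Counted per length, its fold change in ASIC1a-/- mice was smaller, -0.22 on the log2(TPM + 1) scale. The effective length that RSEM assigned to Calr was 1404 ± 27.3 bases in ASIC1a-/- mice at ZT13 and 1454 ± 16.1 bases at ZT1 (SD, n = 4), and its part in the difference was not tested.

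Hsp90b1 (ENSMUSG00000020048, GRCm38 chr10:86690209-86705509, minus strand) encodes GRP94, the ER form of HSP90, which completes the folding of integrins, Toll-like receptors and insulin-like growth factors. It had 505, 495, 506 and 514 CPM in ASIC1a-/- mice at ZT13, against 577, 623, 598 and 601 CPM in ASIC1a-/- mice at ZT1. WT mice showed 517, 487, 519 and 500.3 CPM at ZT13, against 631, 614, 567 and 595 CPM at ZT1. As for Calr, no ZT13 library reached the lowest ZT1 library. The log2 fold change was -0.25 in both genotypes (SE 0.0315 each), with an adjusted p of 7e-05 in ASIC1a-/- mice and 6.8e-05 in WT mice. Calr and Hsp90b1 kept these calls in both genotypes under all 27 alternative settings.

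Hspa5 (ENSMUSG00000026864, GRCm38 chr2:34771970-34777547, plus strand) encodes BiP, the ER HSP70 that binds exposed hydrophobic stretches and keeps the stress sensors silent. It had 438, 453, 453 and 482 CPM in ASIC1a-/- mice at ZT13, against 471, 558, 509 and 508 CPM in ASIC1a-/- mice at ZT1. In WT mice it had 452, 453, 451 and 476 CPM at ZT13, against 499.5, 525, 446 and 475 CPM at ZT1. The groups overlapped in both genotypes, through the highest ZT13 library in ASIC1a-/- mice and the lowest ZT1 libraries in WT mice. The decrease passed the test in ASIC1a-/- mice (log2 fold change -0.16, SE 0.0484, adjusted p = 0.0352), whereas the fold change of -0.09 in WT mice did not (95% interval -0.19 to 0.02, adjusted p = 0.27). The call for Hspa5 was the least stable of the 7, with an adjusted p between 0.0082 and 0.21 over the 27 alternatives and a loss in 10 of them, including the omission of any one of ASIC1a-/- ZT1 replicates 2, 3 and 4 or ASIC1a-/- ZT13 replicates 1, 2 and 3.

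Hyou1 (ENSMUSG00000032115, GRCm38 chr9:44379490-44392369, plus strand) and Dnajb11 (ENSMUSG00000004460, GRCm38 chr16:22857845-22879634, plus strand) encode partners of BiP: HYOU1 (GRP170) is a large HSP70-like protein that exchanges its nucleotide, and DNAJB11 (ERdj3) is a J-domain protein that delivers clients to it. Hyou1 had 198, 196, 196 and 199 CPM in ASIC1a-/- mice at ZT13, against 203, 212, 211 and 212 CPM in ASIC1a-/- mice at ZT1. In WT mice it had 199.6, 199, 202 and 201 CPM at ZT13, against 205, 210.0, 208 and 203 CPM at ZT1. Neither genotype's groups overlapped, and the step was small but tight: -0.09 on the log2 scale (SE 0.0202, adjusted p = 0.00843) in ASIC1a-/- mice, and -0.04 (SE 0.0202, adjusted p = 0.182) in WT mice. The call for Hyou1 was lost on the TPM scale, without the filter on low counts, and without the pair of libraries high in meningeal markers.

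Dnajb11 had 50.02, 50.5, 52.2 and 53.9 CPM in ASIC1a-/- mice at ZT13, against 56.3, 61.2, 54.6 and 56.4 CPM in ASIC1a-/- mice at ZT1. WT mice had 52.5, 51.6, 51.5 and 52.5 CPM at ZT13, against 56.2, 57.3, 55.7 and 53.5 CPM at ZT1. ZT13 libraries were again below all ZT1 libraries in each genotype. The log2 fold change was -0.14 (SE 0.0366, adjusted p = 0.0159) in ASIC1a-/- mice and -0.10 (SE 0.0368, adjusted p = 0.0893) in WT mice. For Dnajb11 the call in ASIC1a-/- mice was lost without ASIC1a-/- ZT1 replicate 2 (adjusted p = 0.057) or ASIC1a-/- ZT13 replicate 1 (adjusted p = 0.0573), and a call in WT mice appeared when ASIC1a-/- ZT1 replicate 2 was left out of the shared fit (adjusted p = 0.0494).

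Sdf2l1 (ENSMUSG00000022769, GRCm38 chr16:17130138-17132383, minus strand) encodes a small ER protein that works with DNAJB11 to keep clients soluble. It had 8.61, 9.58, 8.24 and 9.26 CPM in ASIC1a-/- mice at ZT13, against 10.8, 12.9, 11.3 and 9.58 CPM in ASIC1a-/- mice at ZT1. In WT mice it had 9.09, 9.78, 8.82 and 8.70 CPM at ZT13, against 9.996, 10.6, 9.36 and 9.81 CPM at ZT1. Groups met at 9.58 CPM in ASIC1a-/- mice and overlapped in WT mice, in which all but 1 of the ZT13 libraries were below all ZT1 libraries. Sdf2l1 had the lowest log2 fold change of the 10 in ASIC1a-/- mice, -0.32, but also the largest SE, 0.0793 (adjusted p = 0.0143), and in WT mice it was -0.13 (SE 0.0801, adjusted p = 0.331). Without ASIC1a-/- ZT1 replicate 2, its adjusted p in ASIC1a-/- mice was 0.0528.

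Manf (ENSMUSG00000032575, GRCm38 chr9:106838312-106891979, minus strand) encodes a small neurotrophic protein of the ER lumen that is retained by BiP and secreted upon calcium loss. It had 39.8, 41.5, 40.4 and 41.6 CPM in ASIC1a-/- mice at ZT13, against 42.6, 47.8, 45.5 and 43.7 CPM in ASIC1a-/- mice at ZT1. WT mice had 41.9, 41.8, 40.6 and 42.2 CPM at ZT13, against 40.7, 44.0, 40.1 and 41.7 CPM at ZT1. The ASIC1a-/- groups did not overlap, while those of WT mice overlapped, the ZT13 libraries lying within the range of the ZT1 libraries. The log2 fold change of Manf was -0.14 (SE 0.0381, adjusted p = 0.026) in ASIC1a-/- mice, lost when any one of ASIC1a-/- ZT1 replicates 2 and 3 or ASIC1a-/- ZT13 replicates 1 and 3 was left out, and 0.00 (SE 0.0384, 95% interval -0.08 to 0.08) in WT mice.

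Xbp1 (ENSMUSG00000020484, GRCm38 chr11:5520659-5525893, plus strand) encodes the transcription factor that IRE1 activates by splicing. It had 110.3, 113, 117 and 125 CPM in ASIC1a-/- mice at ZT13, against 119, 136, 125 and 122 CPM in ASIC1a-/- mice at ZT1. In WT mice it had 118, 119, 115 and 120.0 CPM at ZT13, against 113, 124, 113 and 116 CPM at ZT1. Groups overlapped, and neither log2 fold change of Xbp1 passed the test (-0.11, adjusted p = 0.102, in ASIC1a-/- mice and 0.02, adjusted p = 0.816, in WT mice). Without ASIC1a-/- ZT13 replicate 4, which was the highest of its group for Xbp1, the decrease in ASIC1a-/- mice passed (adjusted p = 0.0347). Gene totals do not separate spliced from unspliced Xbp1 mRNA, so they do not measure IRE1 activity.

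Pdia4 (ENSMUSG00000025823, GRCm38 chr6:47796141-47813430, minus strand), the disulfide isomerase ERp72, and Creld2 (ENSMUSG00000023272, GRCm38 chr15:88819646-88826683, plus strand), which binds misfolded secretory proteins, completed the list without passing the test in either genotype. Pdia4 had 60.9, 67.2, 61.9 and 65.8 CPM in ASIC1a-/- mice at ZT13, against 64.2, 77.0, 70.8 and 70.8 CPM in ASIC1a-/- mice at ZT1. The change of Pdia4 on the log2 scale was -0.15 (SE 0.0547, adjusted p = 0.0966) in these mice and -0.08 (SE 0.0549, adjusted p = 0.359) in WT mice, and it passed in ASIC1a-/- mice when ASIC1a-/- ZT1 replicate 1, the lowest of its group, was omitted (adjusted p = 0.0334). Creld2 averaged 18.5 ± 0.683 CPM in ASIC1a-/- mice at ZT13 and 19.9 ± 1.48 CPM at ZT1, and 18.0 ± 1.46 CPM in WT mice at ZT13 and 18.0 ± 0.811 CPM at ZT1 (SD, n = 4 each). The log2 fold changes of Creld2, which carried an ERSE like Calr, Hsp90b1 and Hspa5, were -0.10 (95% interval -0.23 to 0.02, adjusted p = 0.277) in ASIC1a-/- mice and 0.00 (95% interval -0.12 to 0.13, adjusted p = 0.985) in WT mice. The part of ERSE in these changes was not tested.

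The number of calls in ASIC1a-/- mice rested in part on single libraries. Left out one at a time, the libraries gave 3 to 8 called members, with 3 (Hsp90b1, Calr and Hyou1) without ASIC1a-/- ZT1 replicate 2 and 4 without ASIC1a-/- ZT13 replicate 1. On the log2(TPM + 1) scale, tested with limma, 3 members were called, Hsp90b1, Calr and Sdf2l1, and the number was also 3 when only the 8 ASIC1a-/- libraries were fitted. In WT mice the count was 2 to 3 under all settings.

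The same 10 genes did not pass any test between genotypes. At ZT1, none was called by edgeR, DESeq2 or limma-voom, 8 of 10 log2 fold changes of ASIC1a-/- against WT were above 0, from -0.02 to 0.16 with a median of 0.056, and the adjusted p was 0.68 to 0.99. An unadjusted p under 0.05 was found for 3 of the 10, with log2 fold changes of 0.11 for Manf, 0.11 for Xbp1 and 0.15 for Creld2, and for 7.00% of all tested genes. Called lower at ZT1 were 0.0127% of all tested genes, and none was called higher. At ZT13, none of the 10 was called by any of the 3 tools or had an unadjusted p under 0.05 (3.74% of all tested genes had one), the log2 fold changes of ASIC1a-/- against WT ran from -0.03 to 0.04, and 0.101% of all tested genes were called. The 95% intervals at ZT13 were narrow for Calr, -0.05 to 0.07, and Hsp90b1, -0.07 to 0.06. That of Hspa5 was wider, -0.11 to 0.10, and that of Sdf2l1 the widest, -0.20 to 0.14. Hyou1 was the only member whose groups did not overlap at ZT13, as was so, with ASIC1a-/- lower, for 1.29% of all tested genes, the highest ASIC1a-/- library and the lowest WT library both rounding to 199 CPM, and its log2 fold change there was only -0.02 (SE 0.0202).

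Although 7 genes passed in ASIC1a-/- mice and 2 in WT mice, the time-of-day changes were not shown to differ between genotypes. The difference of log2 fold changes, ASIC1a-/- minus WT, was below 0 for 8 of 10 genes, with a median of -0.071 and a range of -0.19 to 0.03, and none was called by edgeR, DESeq2 or limma-voom (adjusted p = 1 for all 10 in edgeR). Of all tested genes, 0.0190% were called for it. Before adjustment, the p was under 0.05 for 3.91% of all tested genes and for 2 of the 10, Manf (-0.14, 95% interval -0.25 to -0.02) and Xbp1 (-0.13, 95% interval -0.26 to 0.00). For Calr the difference was 0.03 (95% interval -0.06 to 0.11) and for Hsp90b1 0.00 (95% interval -0.09 to 0.10). These comparisons share libraries: the ASIC1a-/- ZT1 mice enter the comparison of times, that of genotypes at ZT1 and the difference of the differences.

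**Figure D2:**
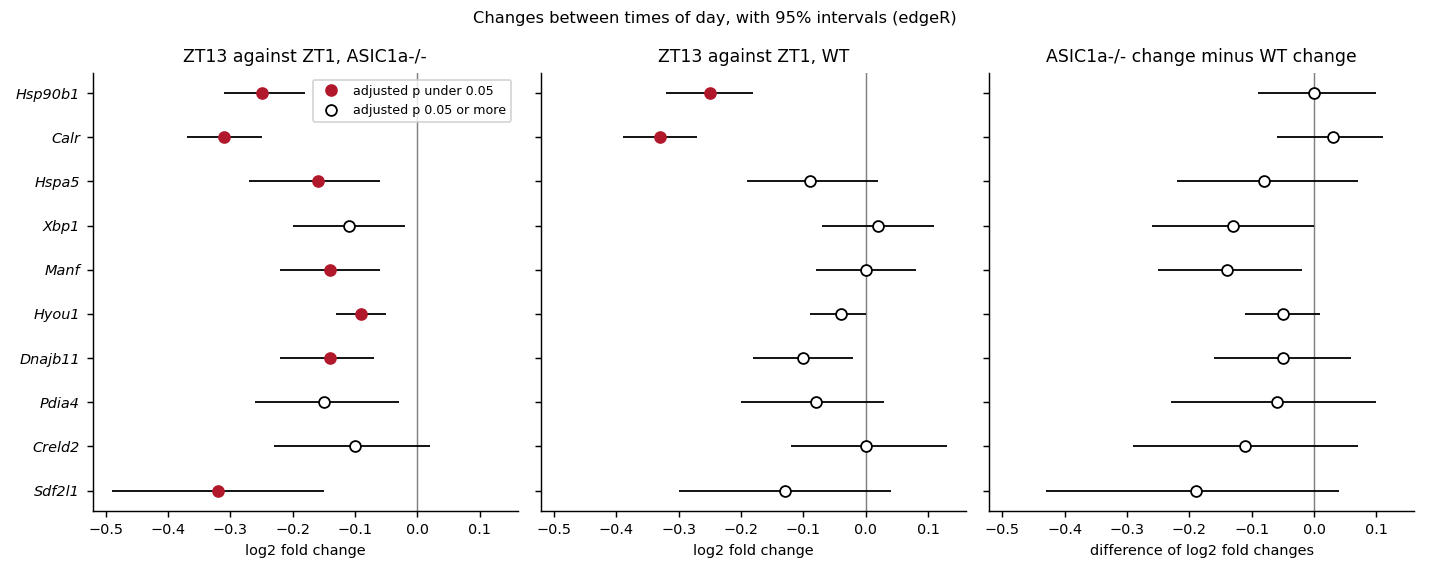
Log2 fold changes of the 10 genes (rows, in order of TPM) at ZT13 against ZT1 in ASIC1a-/- mice (left) and WT mice (middle), and the difference between these changes (right), with 95% intervals from edgeR as lines. Filled points passed at an adjusted p under 0.05: 7 in ASIC1a-/- mice, 2 in WT mice and none in the difference.

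A comparison of ZT13 with ZT1 averaged over both genotypes, chosen after seeing the data, called 7 of the 10 genes lower against 12.1% of all tested genes. These were Calr (-0.32, adjusted p = 6.1e-09), Hsp90b1 (-0.25, adjusted p = 4.6e-07), Sdf2l1 (-0.22, adjusted p = 0.00685), Hspa5 (-0.13, adjusted p = 0.0113), Dnajb11 (-0.12, adjusted p = 0.00219), Pdia4 (-0.11, adjusted p = 0.037) and Hyou1 (-0.07, adjusted p = 0.00235). Manf (-0.07, adjusted p = 0.0695), Xbp1 (-0.05, adjusted p = 0.287) and Creld2 (-0.05, adjusted p = 0.408) did not pass. Pdia4 lost this call in 13 of 26 alternatives, and Hspa5 and Hyou1 lost it on the TPM scale.

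The genes also varied together from mouse to mouse within groups. ASIC1a-/- ZT1 replicate 2 was the highest of its group for all 10 genes, on average 0.105 above its group mean in log2 CPM, and ASIC1a-/- ZT1 replicate 1 was below its group mean for all 10, by 0.069 on average. ASIC1a-/- ZT13 replicate 4 was above its group mean for all 10 and the highest for 8. Among WT mice, ZT13 replicate 4 was the highest of its group for 7 genes and ZT1 replicate 2 for 8. The spread within groups was widest for Sdf2l1 and narrowest for Hyou1 in the map of deviations.

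**Figure D3:**
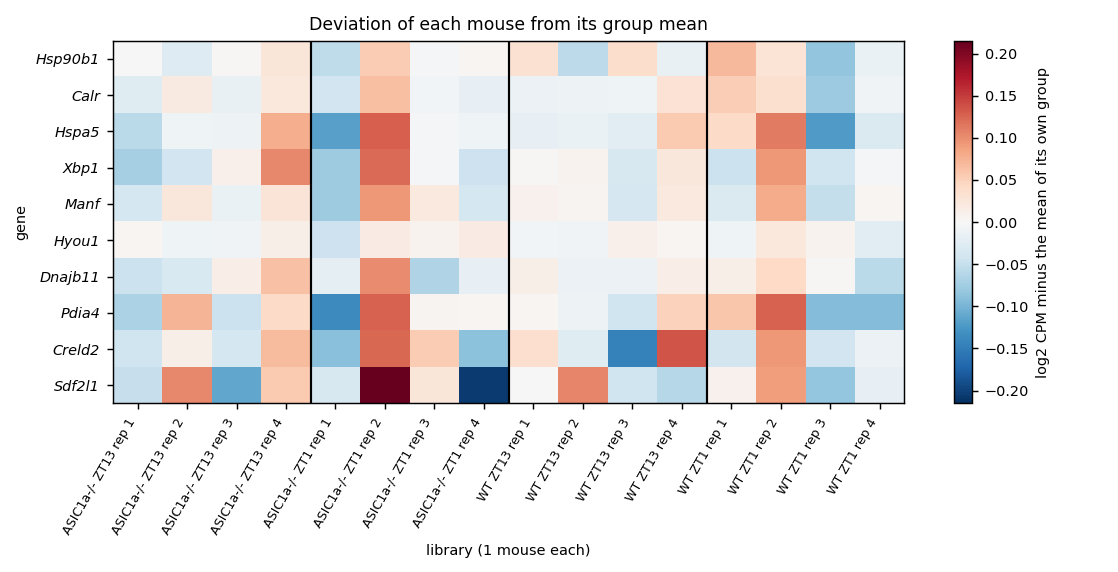
Log2 CPM of each gene (rows) in each library (columns, 1 mouse each, groups separated by lines) minus the mean of that library's group. Red is above and blue below the group mean, and the column of ASIC1a-/- ZT1 replicate 2 is red for all 10 genes while that of ASIC1a-/- ZT1 replicate 1 is blue for all 10.

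Once each group's mean was removed, Hspa5 was related by Pearson r to all 9 other members over the 16 libraries (permutation test with 100000 resamples, adjusted over 9 relations). The relation was closest for Calr (Pearson r = 0.912, permutation p = 1e-05, adjusted p = 4.5e-05, Spearman rho = 0.856, permutation p = 6e-05, adjusted p = 0.00027) and Pdia4 (r = 0.905, permutation p = 1e-05, adjusted p = 4.5e-05, rho = 0.894, permutation p = 2e-05, adjusted p = 0.00018), where 1e-05 is the smallest p these permutations can give. Without ASIC1a-/- ZT1 replicate 2 and WT ZT1 replicate 2, the 2 libraries farthest from the median of Hspa5, r was 0.89 for Calr and 0.837 for Pdia4. Manf (r = 0.852, adjusted permutation p = 9e-05, rho = 0.806, adjusted p = 0.00099) and Xbp1 (r = 0.837, adjusted permutation p = 9e-05, rho = 0.679, adjusted p = 0.00868) came next and had r of 0.714 and 0.696 without these libraries. Creld2 (r = 0.712, rho = 0.729), Hsp90b1 (r = 0.704, rho = 0.535) and Dnajb11 (r = 0.68, rho = 0.606) had adjusted permutation p of 0.00346, 0.00355 and 0.00476 for r. Their r without the 2 libraries was 0.565, 0.644 and 0.443. The relation was weakest for Hyou1 (r = 0.574, adjusted permutation p = 0.0224, rho = 0.524) and Sdf2l1 (r = 0.549, adjusted permutation p = 0.0269, rho = 0.474, adjusted p = 0.0653), which had r of 0.399 and 0.249 without them. The relations of Dnajb11 and Hyou1 thus rested in part on those mice, and that of Sdf2l1 most of all. On the log2(TPM + 1) scale, 3 relations did not pass, those of Hsp90b1 (r = 0.475), Hyou1 (r = 0.469) and Sdf2l1 (r = 0.46), with adjusted permutation p of 0.0726, 0.0726 and 0.0735. Of 14235 other genes above 1 CPM in every library, 0.00702% followed Hspa5 as closely as Calr did in log2 CPM, 1.96% as closely as Hsp90b1 and 8.16% as closely as Sdf2l1. The points share libraries and their scaling. The permutations moved values freely across groups after the group means were removed. Their p-values may therefore be too small, which matters most for Hyou1 and Sdf2l1.

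Among 14235 genes above 1 CPM in every library, the genes outside the list whose log2 CPM followed the mean of the 10 most closely over the 16 libraries were the cytosolic HSP70 Hspa8 (Pearson r = 0.937), the ER membrane protein Derl1 (r = 0.933), which takes part in removing misfolded proteins, and the disulfide isomerase Pdia3 (r = 0.928). Hist3h2a (r = 0.925), Pea15a (r = 0.919), the HSP90 co-chaperone Ahsa1 (r = 0.918), Pex13 (r = 0.917) and the HSP70-HSP90 adaptor Stip1 (r = 0.913) followed. With group means removed, the closest were the phosphatase gene Ptp4a1 (r = 0.94) and Arf4 (r = 0.929), a small GTPase of the secretory pathway, and Stip1 (r = 0.876) and Hspa8 (r = 0.873) remained among the first 8. These values are descriptions over 16 libraries that share the group structure.

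The genes of the lists that follow are read against all tested genes, of which 6.72% were called higher and 4.62% lower in ASIC1a-/- mice, and 7.52% higher and 5.76% lower in WT mice. Of 26 further ER chaperones and folding enzymes, 4 fell and 1 rose at ZT13 against ZT1 in ASIC1a-/- mice (median log2 fold change -0.057), and 3 fell and 1 rose in WT mice (median 0.009). The disulfide isomerase Pdia6 had 149.8 ± 4.25 CPM in ASIC1a-/- mice at ZT13 and 171 ± 5.59 CPM at ZT1, and 149.5 ± 4.59 CPM in WT mice at ZT13 and 170.3 ± 5.40 CPM at ZT1 (SD, n = 4 each), and its log2 fold change was -0.19 in both (adjusted p = 0.00062 and 0.00076). Pdia3, the isomerase that pairs with calreticulin, fell by 0.18 in ASIC1a-/- mice and 0.14 in WT mice on the log2 scale, and Creld1 by 0.17 and 0.13. Dnajc10, a reductase that acts on misfolded proteins, was the gene that rose, by 0.11 in ASIC1a-/- and 0.13 in WT mice. Of 22 genes of the translocon and the oligosaccharyl transferase, which carry and glycosylate entering proteins, 3 fell in ASIC1a-/- mice (Stt3b, Rpn2 and Rpn1; log2 fold changes -0.14, -0.08 and -0.10) and 1 in WT mice (Rpn1, -0.09).

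Genes of the PERK and ATF4 branch that passed the test within a genotype were higher at ZT13. Averaged over both genotypes, 5 rose and 1 fell, against 2256 and 1914 of all 15808 tested genes. Ddit3, Trib3 and Cebpb of this branch were not tested. Of 13 tested genes of the PERK and ATF4 branch, 3 rose and none fell in each genotype, and 5 fold changes were below 0 in each. Ppp1r15b, which encodes a subunit that reverses the PERK-driven block of translation, rose by 0.28 in ASIC1a-/- mice (81.5 ± 4.06 CPM at ZT13, against 67.1 ± 3.15 CPM at ZT1) and by 0.25 in WT mice (79.8 ± 3.42 CPM at ZT13, against 67.2 ± 2.14 CPM at ZT1; SD, n = 4 each) on the log2 scale. Atf4 itself rose by 0.13 in ASIC1a-/- mice (adjusted p = 0.0138) and 0.12 in WT mice (adjusted p = 0.017), and the third gene was Vldlr in ASIC1a-/- mice and Psat1 in WT mice. Of 17 genes of ER-associated degradation, 1 rose and 2 fell in ASIC1a-/- mice, and 3 rose and 1 fell in WT mice. Herpud1, an ER stress target that scaffolds this machinery, was higher at ZT13 in both (0.14, adjusted p = 0.0233, in ASIC1a-/- mice and 0.19, adjusted p = 0.00245, in WT mice), whereas Sel1l was lower in both (-0.07 and -0.09). Of 9 stress sensors and transducers, 1 fell in ASIC1a-/- mice (Creb3l1, -0.40, adjusted p = 0.0372), where 8 of the 9 fold changes were below 0 (median -0.048), and none was called in WT mice by edgeR.

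Heat shock proteins of the cytosol and mitochondria include chaperones of the same HSP70 and HSP90 families as BiP and GRP94. Of 15 such genes, 7 fell and 1 rose in ASIC1a-/- mice (median -0.128), and 6 fell and 1 rose in WT mice (median -0.103). Hspa8 had 2411 ± 78.4 CPM in ASIC1a-/- mice at ZT13 and 2699 ± 125 CPM at ZT1, and 2368 ± 27.5 CPM in WT mice at ZT13 and 2648 ± 68.1 CPM at ZT1 (SD, n = 4 each), which gave -0.16 on the log2 scale in each genotype. Hsph1, its nucleotide exchange factor, fell by 0.24 in both genotypes. The log2 fold change was -0.18 in ASIC1a-/- mice and -0.20 in WT mice for Hsp90aa1, and -0.12 and -0.10 for Hsp90ab1, all called. Hspe1, a mitochondrial co-chaperonin, fell by 0.23 in ASIC1a-/- mice (adjusted p = 0.00634) and had a log2 fold change of -0.07 in WT mice (adjusted p = 0.369). Dnajb1, a heat shock factor target, was the gene that rose, by 0.29 in ASIC1a-/- mice and 0.41 in WT mice. No gene of the ER and heat shock lists named above was called between genotypes at either time or for the difference of the differences in edgeR.

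**Figure D4:**
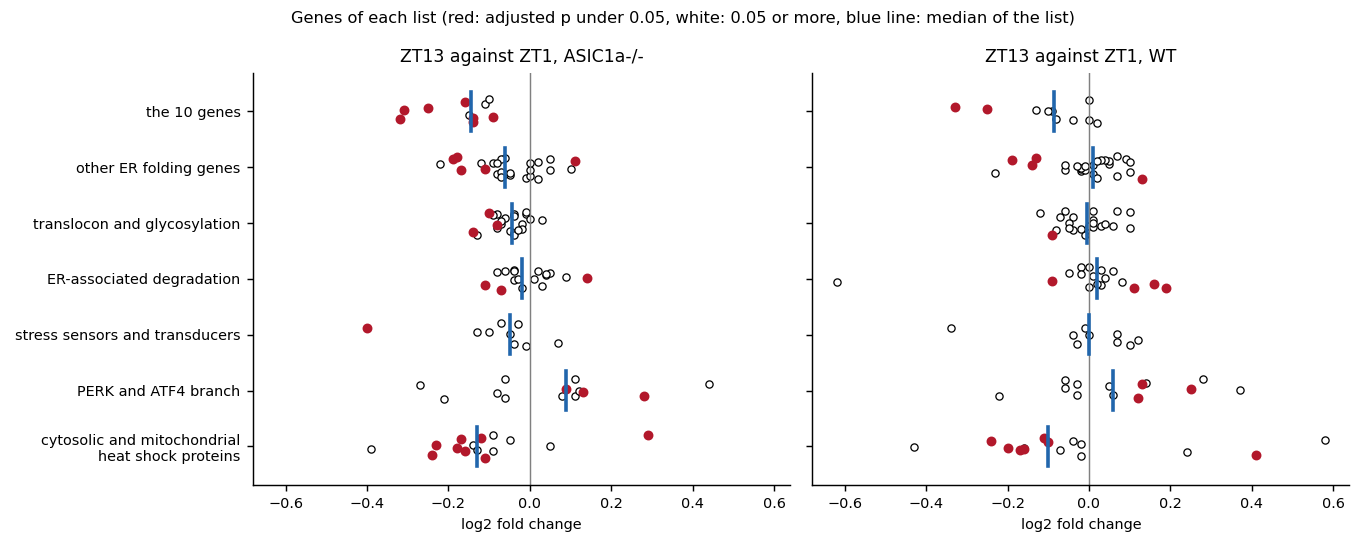
Log2 fold changes at ZT13 against ZT1 (x axis) of single genes in 7 lists (rows) in ASIC1a-/- mice (left) and WT mice (right); red points passed at an adjusted p under 0.05, and blue lines are list medians. The medians of the 10 genes (-0.145 and -0.084) and of cytosolic and mitochondrial heat shock proteins (-0.128 and -0.103) lay furthest below 0, and that of the PERK and ATF4 branch (0.091 and 0.063) above it.

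Several cell type markers moved with time of day beside these results. The summed level of 8 microglial markers was 196 to 206 CPM in ASIC1a-/- mice at ZT13 against 212 to 232 CPM at ZT1, and 188 to 198 CPM in WT mice at ZT13 against 202 to 213 CPM at ZT1, with 1 of 8 called in each genotype (Cx3cr1). Of 7 astrocyte and of 7 oligodendrocyte markers, 1 each fell in both genotypes (Gja1 and Cnp). Of 7 endothelial markers, 2 rose and 1 fell in ASIC1a-/- mice (Ly6c1, 0.49, Slco1a4, 0.38, and Cldn5, -0.37, on the log2 scale), and 2 rose and 2 fell in WT mice (Ly6c1, 0.39, Slco1a4, 0.19, Cldn5, -0.41, and Tek, -0.37). Their summed level was 159.6 to 183 CPM in ASIC1a-/- mice at ZT13 against 149.5 to 187 CPM at ZT1, and 149.5 to 157 CPM in WT mice at ZT13 against 153 to 166 CPM at ZT1. The 9 meningeal markers summed to 375 CPM in ASIC1a-/- ZT1 replicate 4 and 186 CPM in ASIC1a-/- ZT13 replicate 2, and to between 45.0 and 105 CPM in the other 14 libraries. Without that pair, 4 of the 10 genes were called in ASIC1a-/- mice (Calr, Hsp90b1, Sdf2l1 and Manf), with log2 fold changes of -0.32, -0.24, -0.42 and -0.16, and Hspa5, Hyou1 and Dnajb11, no longer called, had -0.16, -0.08 and -0.14. The part of cell composition in the chaperone differences was not tested. Of 7 anterior pituitary markers, 5 were tested, as Tshb and Lhb were under the filter. In WT mice, 4 rose at ZT13 (Gh, 3.66, Prl, 3.10, Cga, 6.25, and Fshb, 4.92, on the log2 scale), and none was called in ASIC1a-/- mice by edgeR. Spread between mice was wide in WT at ZT13, with 12.9 ± 9.64 CPM for Gh and 3.41 ± 3.73 CPM for Prl (SD, n = 4). At ZT1 they had 1.02 ± 1.11 and 0.395 ± 0.305 CPM. Cga had 4.55 ± 3.27 CPM at ZT13 against 0.0562 ± 0.0322 CPM at ZT1, and Fshb 0.738 ± 0.62 CPM against 0.0211 ± 0.0269 CPM. The fold changes of Cga (SE 1.6) and Fshb (SE 1.28) thus set ZT13 against values near 0. All 7 markers summed to 39.7 to 95.9 CPM in WT mice at ZT13 against 41.3 to 53.9 CPM at ZT1. At ZT1 most of this sum came from markers other than these 4, so the sum does not show their rise. Lhb was at 0 in all libraries of ASIC1a-/- ZT13 and of WT ZT1.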

How the data were processed

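Hypothalamic RNA of 16 mice was sequenced. Per the submitters' processing notes, reads were trimmed with cutadapt 1.8, aligned with STAR 2.5.3a and quantified with RSEM 1.2.31, and the authors deposited RSEM expected counts and TPM per gene and library. The notes name both GRCm38 and mm9, the study's methods an Ensembl GRCm38 annotation; strand handling was not given in the sources used here. Gene coordinates came from GENCODE M21 and promoters from RefSeq, both on GRCm38; 55141 of 55401 identifiers had a symbol.

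The deposited expected counts (4.85% not whole) were rounded and fitted with edgeR 4.0.16 in R 4.3.3: TMM, genes above 1 CPM in at least 1 library, 4 group means in 1 fit of 16 libraries, quasi-likelihood F test, Benjamini-Hochberg adjustment over 15808 genes, and a threshold of 0.05. The fit had 12 residual degrees of freedom and a common biological coefficient of variation of 6.06%. P-values set the differences between groups against the spread between these mice. On data simulated for the WT comparison of times (15808 genes), the fit recovered 52% of log2 changes of 0.25 and 78% of those of 0.5. CPM in the text are TMM-scaled, and 95% intervals are from the same fit. The deposited TPM were compared between genes and, as log2(TPM + 1), tested with limma 3.58.1. Alternatives were the filter, the scaling, DESeq2 1.42.0, limma-voom, TPM with a pseudocount of 1 or 0.1, a replicate block, a fit of only the libraries compared, and omission of single libraries.

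The members and all gene lists were chosen with earlier results of these data known, so their counts are descriptions set beside those of all genes. Named were all members, of each other list up to 4 genes past the test with the smallest p, and the 8 genes most like the mean of the members. Dnajb1, Dnajc10, Hspe1 and Alg12 were also named after their values were seen. Relations were tested with 100000 permutations in scipy 1.17.1.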

Additional observations from a re-analysis of the deposited data

Results flagged for a closer look

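In 3 of the 40 sets of 4 libraries tested (10 genes in 4 groups), 1 library lay far from the others by Dixon's criterion, which chance meets in about 1 of 20 sets. Hspa5 had 476 CPM in WT ZT13 replicate 4, where the other 3 libraries had 451 to 453 CPM. Calr had 300.3 CPM in the same library, where the other 3 had 291 to 292 CPM. Hyou1 had 203 CPM in ASIC1a-/- ZT1 replicate 1, where the other 3 had 211 to 212 CPM.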

How the results depend on the processing

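Of 1600 values of the 10 genes over 6 comparisons and all alternatives, 1550 kept their direction and their side of the threshold or were called in neither fit, 46 lost a call, 4 gained one and no called value turned round; among those called in neither fit, 51 changed sign. Calr and Hsp90b1 kept their calls throughout, and the cause of the lost calls was not tested. In ASIC1a-/- mice, the members called numbered 3 with log2(TPM + 1), 3 with log2(TPM + 0.1), 3 in a fit of only its 8 libraries, 4 without the pair of libraries high in meningeal markers and 3 to 8 with single libraries left out. Averaged over both genotypes they numbered 4 with either pseudocount and 6 to 8 with single libraries left out. The genes called between times in ASIC1a-/- mice numbered 1792 (1062 higher, 730 lower), but 971 with log2(TPM + 1) (763 higher, 208 lower), 969 with log2(TPM + 0.1), 1099 without that pair and 1162 to 1827 with single libraries left out, the lowest without ASIC1a-/- ZT13 replicate 1. In WT mice they numbered 2099 (1188 higher, 911 lower), but 879 (437 higher, 442 lower) and 882 on the TPM scales and 1320 to 2190 with single libraries left out, the lowest without WT ZT13 replicate 4. Averaged, they numbered 4170, but 2643 and 2654 on the TPM scales. Between genotypes at ZT1, 2 genes were called, but 15 without the filter, 7 by DESeq2, 1 on each TPM scale and 2 to 5 with single libraries left out, and at ZT13 16, but 29 without the filter, 30 by DESeq2 and 12 to 19 with single libraries left out. For the difference of the differences 3 genes were called, but 17 without the filter, 13 by DESeq2, 6 without the meningeal pair and 3 to 7 with single libraries left out. On log2(TPM + 1), the relations to Hspa5 of Hsp90b1 (r = 0.475, adjusted permutation p = 0.0726), Hyou1 (r = 0.469, adjusted permutation p = 0.0726) and Sdf2l1 (r = 0.46, adjusted permutation p = 0.0735) did not pass, and without the 2 extreme libraries r was 0.443 for Dnajb11 and 0.249 for Sdf2l1.

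Replicate numbers showed no pairing of the mice. Deviations of libraries with the same number correlated between -0.316 and 0.217 (24 pairs, 4 of them over 0.1). Those with other numbers correlated between -0.281 and 0.468 (72 pairs, 13 of them over 0.1). Such correlations cannot exclude that mice with the same number were handled together. With a replicate block, 1621 genes were called between times in ASIC1a-/- mice, 1919 in WT mice and 5 for the difference of the differences, and no member gained or lost a call. With 4 mice a group, the fit recovered 52% of log2 changes of 0.25 in simulated data for the WT comparison of times. The changed genes were drawn at random from those averaging above 1 CPM. They were not matched to the members in level or spread, so this share is not the members' own power. Small differences of the members can still be missed.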

Other observations

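Beyond the 10 genes, ERSE was found in the promoter windows of 15 tested genes. Of these, 3 fell and 1 rose at ZT13 against ZT1 in ASIC1a-/- mice (median log2 fold change -0.040), and 2 fell and none rose in WT mice (median -0.024). The genes that fell in WT mice were Pdia6 and Alg12, a mannosyltransferase of N-glycan assembly, and both also fell in ASIC1a-/- mice. Of 11647 tested genes without ERSE in their windows, 548 fell and 814 rose in ASIC1a-/- mice, and 674 fell and 951 rose in WT mice. Within ER protein handling, ERSE was also present in the windows of Canx, Dnajc3, Syvn1 and Derl3, and it was in none of 12 windows of cytosolic and mitochondrial heat shock proteins.

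Transcripts of the cold-inducible RNA-binding proteins Rbm3 and Cirbp were higher at ZT13 in both genotypes, where those of Calr and Hsp90b1 were lower. Rbm3 had 93.6 ± 5.63 CPM in ASIC1a-/- mice at ZT13 and 54.99 ± 6.30 CPM at ZT1, and 95.9 ± 5.26 CPM in WT mice at ZT13 and 53.9 ± 1.57 CPM at ZT1 (SD, n = 4 each), log2 fold changes of 0.77 (edgeR, adjusted p = 5.2e-07) and 0.83 (adjusted p = 2.2e-07). Cirbp rose by 0.24 in ASIC1a-/- mice and by 0.30 in WT mice on the log2 scale. Of 10 neuronal early response genes, 8 were higher in ASIC1a-/- than in WT mice at ZT13, where none of the 10 ER genes was called (edgeR, DESeq2 or limma-voom). Of 16 tested neuropeptide precursors, clients of the ER, none was called by time of day in ASIC1a-/- mice in edgeR, and 1 fell in WT mice, the corticotropin-releasing hormone gene Crh (-0.63, adjusted p = 0.0261). Crh was close to the filter of 1 CPM, with 1.36 ± 0.194 CPM in WT mice at ZT13 and 2.12 ± 0.3 CPM at ZT1 (SD, n = 4 each).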
